A study of Mus musculus with 10 samples.

Results

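The 10 homeobox genes Otx1, Otx2, Emx1, Emx2, En1, En2, Gbx2, Gsc, Lmx1a and Lmx1b, which pattern the vertebrate head and brain, were examined for binding of Polycomb repressive complex 2 (PRC2) in mouse embryonic stem cells (ESCs). They are 10 of the 22367 protein-coding genes of the GENCODE vM1 annotation and were located in mm9, the build of the deposited sites. They were chosen by name for their role, with earlier results of these data known. A site was assigned to a gene if it shared at least 1 bp with the gene body or the 5 kb on either side. By this rule the 10 genes held 40 of the 8876 Suz12 sites, 33 of the 5722 Suz12-depleted sites, 43 of the 5242 Pcl3 sites and 6 of the 678 H3K27me3-depleted sites.

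Chromatin immunoprecipitation and sequencing (ChIP-seq) was performed with antibodies to H3K27me3, or to the Flag tag of TAP-tagged Suz12 or Pcl3, in 6 libraries beside 4 of input DNA. The H3K27me3 and Suz12 libraries came from ESCs of the BayGenomics gene trap line XG122 with the genotype Suz12Suz12TAP/+, in which the reverted trap allele carries the tag and the other allele is untagged, expressing either scramble shRNA or Pcl3 shRNA. The Pcl3 libraries came from E14 ESC clones carrying Pcl3-TAP that the shRNAs do not recognize, together with shRNA6 or shRNA7 against wild-type Pcl3, so the Pcl3 sites and the Suz12 sites were measured in different cells. There was 1 library per condition for Suz12 and H3K27me3, and the 2 Pcl3 libraries share 1 list of sites, so no comparison below has a replicate, and counts of sites are described without a test.

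The deposited lists give the position of each site and a p-value from the Skellam distribution, which models the difference between the read counts of 2 libraries. A Suz12 or Pcl3 site is a region with more ChIP than input reads, and a depleted site is one with fewer reads in Pcl3 shRNA cells than in scramble cells. The paper reports that Pcl3 knockdown also lowered Suz12 mRNA and protein and raised the proportion of differentiated cells. It allows that lower Suz12 levels may account for part of the lost binding. The part of either in the depleted sites was not tested. A Suz12 site called undepleted or not depleted is one outside the depleted list, and it may have had a loss that was not called. The p-value of every Suz12-depleted site repeats that of the binding site at the same position, so it measures binding in scramble cells and not the size of the loss. The lists hold no read counts and the depth of the libraries was not analysed here, so the precision of a single site is unknown. A p-value written as 0 is given as such, and these sites were ranked as the strongest.

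PRC2 deposits H3K27me3, the trimethyl mark on lysine 27 of histone H3 that accompanies repressed genes. Its core subunit Suz12 is required for that activity, and Pcl3 (Phf19) is an accessory subunit. In ESCs, genes for developmental transcription factors are typical PRC2 targets and carry the mark until the lineage that uses them is formed, and in mammals PRC2 is found mainly at CpG-rich DNA. The genes described here have roles in the embryo: Otx and Emx genes in the forebrain and midbrain, Gbx2 and the engrailed genes around the midbrain-hindbrain boundary, Gsc in the organizer, and the Lmx1 genes in the roof plate and in dopaminergic neurons. Whether any of them acts in ESCs was not examined.

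The sequences that best show the range of these sites are the centers of the 6 H3K27me3-depleted sites and the centers of the 3 weakest Suz12 sites, which were also outside the depleted list. Among the 12 Suz12 sites with a p-value of 0, the center with the most CpG, that of Gsc, is also given. So is that of Otx1, which had the fewest together with a site of Lmx1b. Each is 120 bases of mm9, on the strand of its gene, with each CpG dinucleotide in capitals. The H3K27me3-depleted sites have the following centers, that of Gsc shifted by 38 bp to avoid an untranslated region.
Otx1, chr11:21907341-21907460, minus strand: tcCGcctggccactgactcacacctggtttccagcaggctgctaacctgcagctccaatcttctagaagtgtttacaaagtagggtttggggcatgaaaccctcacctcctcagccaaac
En2, chr5:28488366-28488485, plus strand: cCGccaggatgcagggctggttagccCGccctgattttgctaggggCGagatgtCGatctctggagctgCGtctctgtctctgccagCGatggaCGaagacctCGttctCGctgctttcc
Gsc, chr12:105709704-105709823, minus strand, coding exon: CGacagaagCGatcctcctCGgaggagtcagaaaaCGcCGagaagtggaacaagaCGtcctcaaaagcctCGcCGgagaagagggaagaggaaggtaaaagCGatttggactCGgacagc
Lmx1b upstream, chr2:33499641-33499760, minus strand: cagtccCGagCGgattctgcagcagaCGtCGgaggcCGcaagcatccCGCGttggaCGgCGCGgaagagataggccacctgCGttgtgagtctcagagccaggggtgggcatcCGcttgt
Lmx1b intron, chr2:33430366-33430485, minus strand: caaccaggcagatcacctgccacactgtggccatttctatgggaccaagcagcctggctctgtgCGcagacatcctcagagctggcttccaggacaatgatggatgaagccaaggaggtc
Lmx1b intron, chr2:33423691-33423810, minus strand: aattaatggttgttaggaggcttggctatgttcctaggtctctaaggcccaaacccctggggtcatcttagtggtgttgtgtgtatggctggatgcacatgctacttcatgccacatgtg

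The number of CpG in these 120 bases was 1 at Otx1, 9 in En2, 10 in Gsc, and 12, 1 and 0 at the 3 places of Lmx1b. The places where the H3K27me3 signal was called lower thus ran from CpG-rich to CpG-poor DNA, also within a single gene. The weakest Suz12 sites, each 400 bp wide, have the following centers.
Emx2, chr19:59530441-59530560, plus strand: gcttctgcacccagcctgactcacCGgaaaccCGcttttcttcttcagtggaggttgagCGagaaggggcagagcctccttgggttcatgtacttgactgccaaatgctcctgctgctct
En2, chr5:28490641-28490760, plus strand: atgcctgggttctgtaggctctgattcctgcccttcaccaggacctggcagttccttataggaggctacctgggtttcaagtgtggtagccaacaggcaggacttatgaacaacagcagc
Lmx1b, chr2:33476041-33476160, minus strand: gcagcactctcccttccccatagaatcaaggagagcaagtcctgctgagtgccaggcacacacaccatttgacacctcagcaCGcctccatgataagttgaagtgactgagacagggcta

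These hold 3, 0 and 1 CpG. The stretches at the centers of all 7 undepleted Suz12 sites held a median of 4 CpG (range 0 to 9), and those of the 12 sites with a p-value of 0, all of them depleted, also a median of 4 (range 0 to 19). The numbers of CpG at the centers of these strong, depleted sites and of the undepleted ones thus overlapped. Some stretches of the sites with a p-value of 0 were shifted off the center to avoid untranslated regions, by up to 805 bp at Gbx2. Those of the undepleted sites were all at the center. A stretch covers only part of its site. Over whole sites, the 33 depleted sites of these genes had a median of 3.63 CpG per 100 bp (range 1.58 to 6.32). The 7 undepleted ones had a median of 2.27 (range 0.250 to 4.35). For all depleted and undepleted sites of the list the medians were 5.45 and 5.27. These differences were not tested. Of the 12 sites with a p-value of 0, those of Otx1 (12750 bp) and Lmx1b (9300 bp) had the lowest stretches, with 0 CpG. The stretch of Otx1 and the highest one, in a coding exon of Gsc, are the following.
Otx1, chr11:21898816-21898935, minus strand: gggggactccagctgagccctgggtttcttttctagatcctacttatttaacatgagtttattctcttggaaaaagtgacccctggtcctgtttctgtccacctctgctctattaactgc
Gsc, chr12:105711141-105711260, minus strand: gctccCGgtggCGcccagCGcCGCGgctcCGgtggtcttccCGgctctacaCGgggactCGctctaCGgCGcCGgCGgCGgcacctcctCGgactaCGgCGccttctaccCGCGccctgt

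To determine how far PRC2 occupies these genes, the Suz12 sites of scramble cells were counted at each. All 10 genes had a Suz12 site, against 28.8% of protein-coding genes under the same rule. Each gene had at least 1 site with a p-value of 0, which 2.09% of protein-coding genes had. The annotated gene start lay within a Suz12 site at all 10, compared with 18.2% of protein-coding genes, and that site had a p-value of 0 at every gene and was the widest of the gene's sites at 9. The 10 genes have 24 annotated transcript starts, and all 24 fell within Suz12 sites. The share over the transcript starts of all genes was not counted.

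The Suz12 sites over these genes were wide. The median of the widest site per gene was 5975 bp over the 10 genes (range 3700 to 12750) and 1300 bp over the 6442 protein-coding genes with a Suz12 site. The percent of those 6442 genes with a narrower widest site ran from 93.0 at Emx1 to 99.9 at Otx1. A gene of the group held a median of 4 Suz12 sites, and a gene with any Suz12 site a median of 1. Width and strength of a site move together in a scan that joins overlapping windows, and whether these genes differ from other strongly bound genes was not tested.

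**Figure D1:**
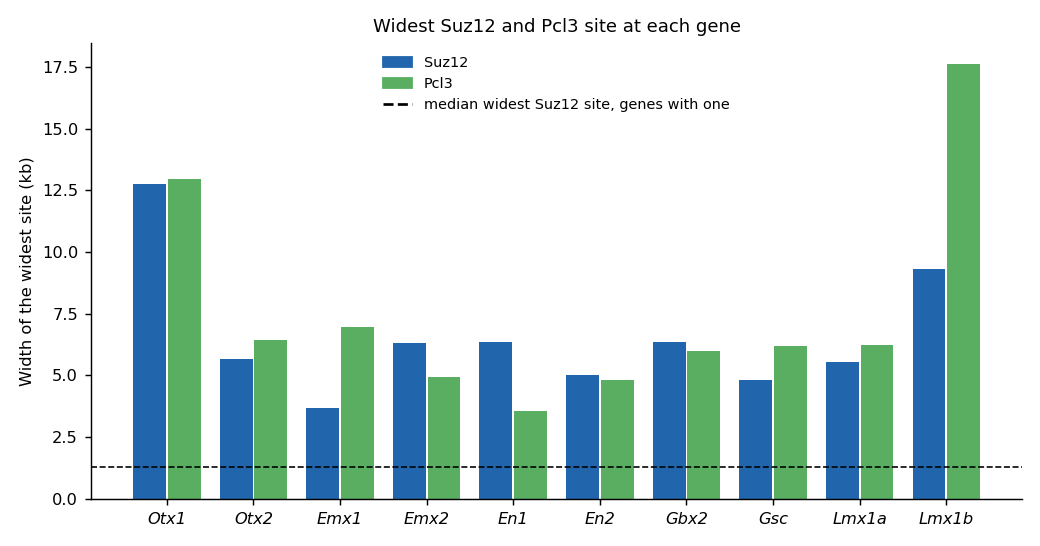
Width in kb of the widest Suz12 site (blue) and the widest Pcl3 site (green) at each of the 10 genes. The dashed line marks 1300 bp, the median of the widest Suz12 site over the 6442 protein-coding genes that have one, and all 10 genes lie above it in both colors, with Otx1 widest for Suz12 (12750 bp) and Lmx1b for Pcl3 (17600 bp).

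All 10 genes also had a Suz12-depleted site, against 20.7% of protein-coding genes, and all 10 had a Pcl3 site, against 14.7%. The first count was fixed by their strong binding. All 435 Suz12 sites of the list with a p-value of 0 were in the depleted list, and each gene had such a site. In the strongest decile of all Suz12 sites, 99.7% shared sequence with a Pcl3 site, so the second count is not separate from strong binding either. An H3K27me3-depleted site was found at 4 of the 10 genes (Otx1, En2, Gsc and Lmx1b), against 3.13% of protein-coding genes. Those of Otx1, within Ehbp1, and En2 lay in the 5 kb flank only, so that 2 genes were left when flanks were omitted (2.28% of protein-coding genes), 1 at p-values of at most 1e-10 (1.07%) and 0 at 1e-12 (0.630%). Of the 40 Suz12 sites, 33 (82.5%) were in the depleted list, compared with 64.5% of all Suz12 sites. Of the 40, 31 (77.5%) shared sequence with a Pcl3 site, compared with 44.3% of all Suz12 sites, and 5 (12.5%) shared sequence with an H3K27me3-depleted site, compared with 6.89%. All 3 of these shares rose with the strength of the Suz12 site over the whole list, and the part of strength in them was not tested. In the other direction, 34 of the 43 Pcl3 sites (79.1%) shared sequence with a Suz12 site, close to the 76.9% of all Pcl3 sites. The Suz12 and Pcl3 sites of the 10 genes covered almost the same length, 114650 bp and 114950 bp, the depleted Suz12 sites 109850 bp and the H3K27me3-depleted sites 8150 bp.

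**Figure D2:**
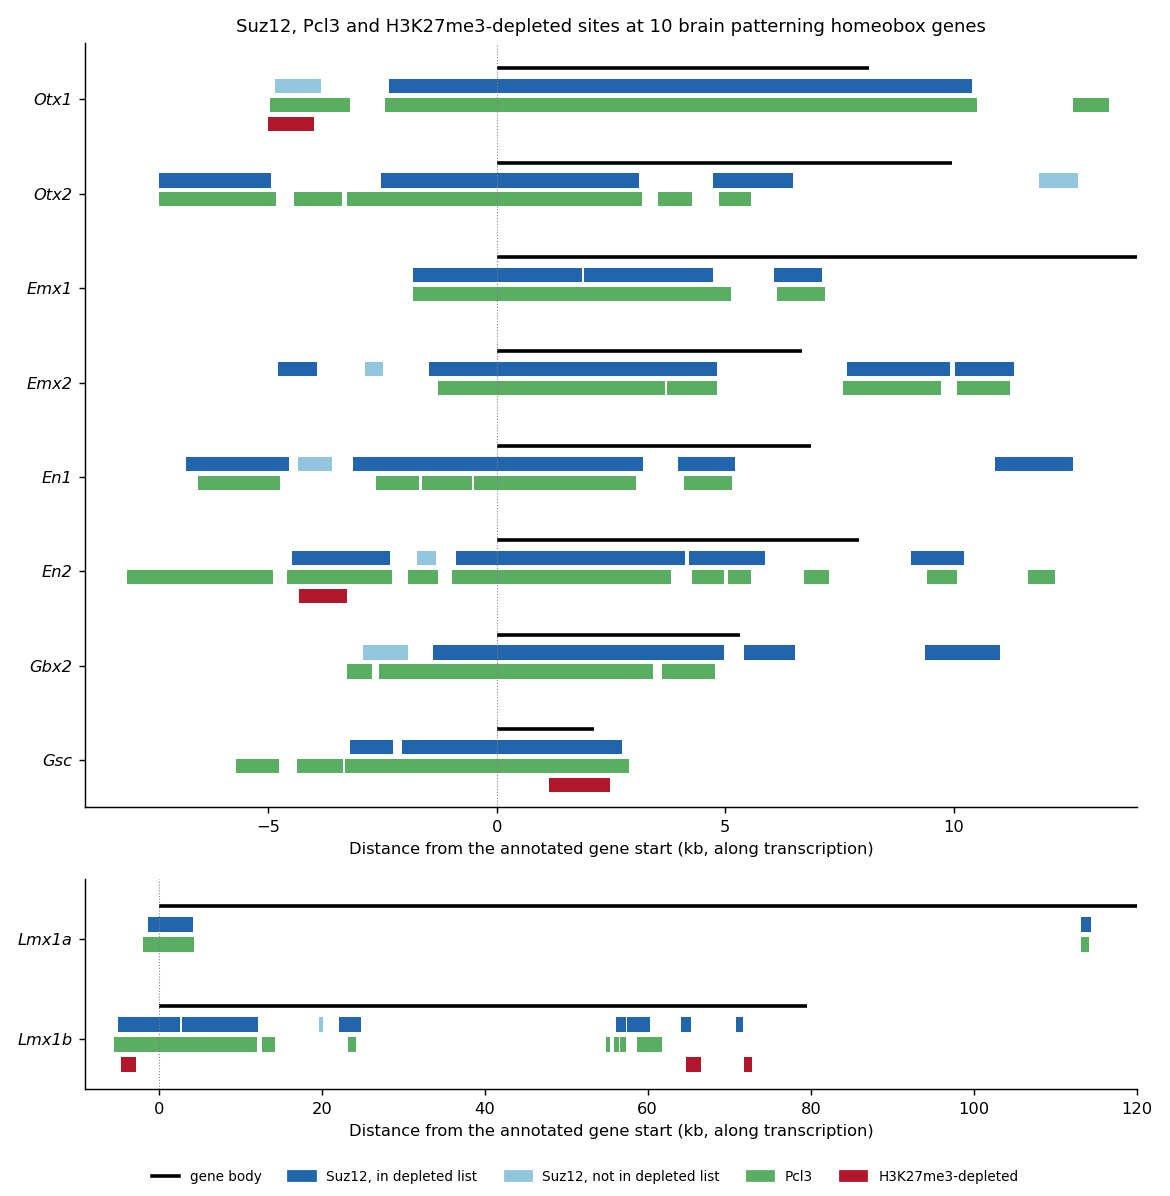
Position of every site at the 10 genes, in kb from the annotated gene start along the direction of transcription, with a different horizontal scale for the long genes Lmx1a and Lmx1b. For each gene the black line is the gene body (cut at the edge of the plot for Emx1 and Lmx1a), followed from top to bottom by Suz12 sites (dark blue if in the depleted list, light blue if not), Pcl3 sites (green) and H3K27me3-depleted sites (red); a wide dark blue and a wide green block cover the start of each gene.

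Otx1 and Otx2 are orthodenticle homologs. Otx2 is required for the formation of the forebrain and midbrain, and Otx1 acts later in the cortex and sense organs. At Otx1 (ENSMUSG00000005917.8, chr11:21894767-21902900, minus strand), a Suz12 site of 12750 bp with a p-value of 0 spanned the whole gene, from 2350 bp before the gene start to beyond the gene end, and took in all of the coding sequence. It was in the depleted list. The Pcl3 site over the same DNA was 12950 bp wide, with a p-value of 0. The second Suz12 site of Otx1, 1000 bp wide (p-value 5.90e-23) and 4.35 kb upstream, lay in the neighbouring gene Ehbp1 and was outside the depleted list. It shared its whole length with a Pcl3 site (p-value 2.70e-61) and 850 bp with the H3K27me3-depleted site of Otx1 (chr11:21906901-21907900, p-value 8.78e-08). Otx1 was thus the only gene of the 10 at which decreased H3K27me3 was called over a Suz12 site that was not called decreased. A Pcl3 site without Suz12 lay downstream (800 bp, p-value 5.85e-16).

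At Otx2 (ENSMUSG00000021848.9, chr14:49277354-49287319, minus strand), the site over the gene start was 5650 bp wide with a p-value of 0, and it did not cover the gene. Suz12 sites took in 30.6% of the Otx2 coding sequence and Pcl3 sites 10.9%, where both took in 100% at Otx1. Upstream of Otx2 lay a strong site of 2450 bp (p-value 9.13e-154) and in an intron one of 1750 bp (p-value 1.60e-45), both depleted and both with Pcl3. The site outside the depleted list was 12.3 kb downstream of the start (850 bp, p-value 5.56e-16) and had no Pcl3 site. A pair of Pcl3 sites without Suz12 flanked the block over the gene start, one of 1050 bp (p-value 2.00e-30) and one of 750 bp (p-value 1.21e-11). No H3K27me3-depleted site was listed within 1283 kb of Otx2.

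Emx1 and Emx2, the empty spiracles homologs, act in the growth and regional identity of the cerebral cortex. Emx1 (ENSMUSG00000033726.8, chr6:85137432-85154456, plus strand) had the narrowest leading site of the 10 genes, 3700 bp, but a second site of 2800 bp began 50 bp after it, and both had a p-value of 0. A single Pcl3 site of 6950 bp with a p-value of 0 ran across both. The third Suz12 site (1050 bp, p-value 8.16e-37) covered a downstream transcript start and shared 1000 bp with a Pcl3 site of p-value 4.10e-21. All 3 sites of Emx1 were depleted, and Emx1 was 1 of 3 genes, with Gsc and Lmx1a, for which this was so.

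Emx2 (ENSMUSG00000043969.3, chr19:59533180-59539847, plus strand) had a site of 6300 bp with a p-value of 0 over its start, reaching into the overlapping gene Emx2os, which is transcribed in the opposite direction. The lists carry no strand, so the 2 genes cannot be told apart there. Beyond the gene end lay sites of 2250 bp (p-value 2.62e-83) and 1300 bp (p-value 2.93e-59), both depleted and with Pcl3. Of the 2 sites upstream, neither had Pcl3, and the stronger (850 bp, p-value 1.26e-23) was depleted while the weaker (400 bp, p-value 8.26e-08), whose sequence is printed above, was not. The Pcl3 site over the start had a p-value of 2.19e-223. The nearest H3K27me3-depleted sites were 1472 kb from Emx1 and 11251 kb from Emx2.

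Gbx2, En1 and En2 are expressed at the midbrain-hindbrain boundary. Gbx2 specifies the anterior hindbrain and sets the boundary against Otx2, and the engrailed proteins pattern the midbrain and cerebellum. At all 3 genes the coding sequence lay wholly within both Suz12 and Pcl3 sites. Gbx2 (ENSMUSG00000034486.7, chr1:91824537-91829865, minus strand) had a site of 6350 bp with a p-value of 0 that also reached D130058E05Rik. Of its downstream sites, that of 1650 bp (p-value 1.55e-39) shared 450 bp with Pcl3 and that of 1100 bp (p-value 3.02e-27) shared none, and both were depleted. A site 2.44 kb upstream of the start (1000 bp, p-value 1.85e-25) was not depleted, although 850 bp of it carried Pcl3. Its p-value was close to that of the depleted downstream site. This site was the strongest of the 7 outside the depleted list.

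En1 (ENSMUSG00000058665.7, chr1:122498995-122505873, plus strand) also had a Suz12 site of 6350 bp with a p-value of 0, but Pcl3 was found there as 3 separate sites, of which the widest had 3550 bp and a p-value of 1.72e-112. That is the narrowest leading Pcl3 site of the 10 genes, and 68.7% of the Suz12 sequence of En1 carried Pcl3, the lowest share among them. Sites upstream (2250 bp, p-value 3.30e-89) and in a coding exon (1250 bp, p-value 9.43e-58) were depleted and carried Pcl3. A downstream site (1700 bp, p-value 1.58e-63) was depleted without Pcl3, and a narrow upstream one (750 bp, p-value 7.57e-15) was neither depleted nor bound by Pcl3.

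En2 (ENSMUSG00000039095.7, chr5:28492236-28500152, plus strand) had the most Pcl3 sites, 9, beside 5 Suz12 sites. Its main Suz12 site (5000 bp) and main Pcl3 site (4800 bp) both had a p-value of 0. The H3K27me3-depleted site (chr5:28487901-28488950, 1050 bp, p-value 5.45e-08) lay upstream, wholly inside a depleted Suz12 site of 2150 bp (p-value 1.48e-133) and inside a Pcl3 site (p-value 1.67e-92). Between that site and the gene start lay the undepleted site of En2, 400 bp wide (p-value 8.10e-08), which had 0.250 CpG per 100 bp and was nonetheless covered by a Pcl3 site (650 bp, p-value 2.47e-12). Sites of 1650 bp (p-value 6.18e-44) and 1150 bp (p-value 2.11e-34) further along were depleted and carried Pcl3. The Pcl3 sites without Suz12 were weak (p-values 1.71e-10 and 5.99e-14). Another Pcl3 site (p-value 1.31e-86), 3200 bp wide, reached the 5 kb limit and shared 2600 bp with a Suz12 site that lay beyond it.

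Gsc encodes goosecoid, a repressor expressed in the organizer and the prechordal plate. Gsc (ENSMUSG00000021095.3, chr12:105709419-105711537, minus strand) was the shortest of the 10 genes and was contained in a Suz12 site of 4800 bp and a Pcl3 site of 6200 bp, both with a p-value of 0, which extended over part of Gm10000. The second Suz12 site (950 bp, p-value 1.56e-31) was also depleted. The H3K27me3-depleted site of Gsc (chr12:105709051-105710400, 1350 bp, p-value 1.06e-08) was the only one of the 6 centered on a coding exon of the gene. It was contained in both the Suz12 and the Pcl3 site. Upstream, Pcl3 continued without Suz12 in sites of 1000 bp (p-value 2.38e-37) and 950 bp (p-value 3.14e-20).

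Lmx1a and Lmx1b are LIM homeobox genes of the roof plate and of midbrain dopaminergic neurons, and Lmx1b also acts in dorsal limb patterning and serotonergic neurons. Lmx1a (ENSMUSG00000026686.8, chr1:169619370-169778872, plus strand) is 159503 bp long but had only 2 Suz12 sites. That over the start was 5550 bp wide with a p-value of 0. The other, 1250 bp (p-value 2.87e-33), lay in an intron 113131 bp after the start, where it shared 900 bp with a Pcl3 site (p-value 4.36e-18). The intronic site had 5.44 CpG per 100 bp, more than the 4.56 of the site over the start. Both were depleted, and the nearest H3K27me3-depleted site was 11068 kb away.

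Lmx1b (ENSMUSG00000038765.5, chr2:33416485-33496031, minus strand) had the most Suz12 sites, 8, covering 26250 bp. A pair of adjacent sites with p-values of 0, of 7650 bp over the start and into C130021I20Rik and of 9300 bp in the gene body, lay under a single Pcl3 site of 17600 bp, also with a p-value of 0. The remaining sites were intronic or, in 1 case, centered on a coding exon. Of these, the strongest were those of 2650 bp (p-value 1.19e-104) and 2850 bp (p-value 2.44e-70), and both carried Pcl3, as did the site of 1200 bp (p-value 5.44e-28) beside the latter. Those of 1250 bp (p-value 9.80e-27) and 950 bp (p-value 3.62e-19), nearest the gene end, were depleted without Pcl3. A site of 400 bp (p-value 8.26e-08), 19.9 kb into the gene, was not depleted.

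Lmx1b was the only gene of the 10 with more than 1 H3K27me3-depleted site. The strongest of its 3 (chr2:33498751-33500650, 1900 bp, p-value 1.97e-12, rank 132 of 678 in the list) was upstream, within the Suz12 site over the gene start and the wide Pcl3 site. The second (chr2:33429501-33431350, 1850 bp, p-value 7.46e-11, rank 196) shared 600 bp with the depleted intronic Suz12 site of 1250 bp, and the third (chr2:33423251-33424250, 1000 bp, p-value 3.96e-08, rank 500) lay 50 bp from the depleted Suz12 site of 950 bp without sharing a base with it. Neither carried Pcl3. The sites of Gsc, En2 and Otx1 ranked 397, 546 and 631. Thus 3 of the 4 paralogous pairs, all but Emx1 and Emx2, had an H3K27me3-depleted site at 1 gene and none at the other. Whether the paralogs differ in H3K27me3 was not tested, because a site missing from the list is one below the cutoff of 1e-07 in 1 pair of libraries. Chromosome 11, which carries Otx1, held 29.2% of all H3K27me3-depleted sites, and the part of the chromosome in the Otx1 site was not tested.

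The 7 undepleted Suz12 sites were set beside the 33 depleted ones. They were narrow and weak, with a median width of 750 bp (range 400 to 1000) and a median −log10 p-value of 14.1 (range 7.08 to 24.7). The depleted sites had a median width of 2250 bp (range 850 to 12750) and a median −log10 p-value of 82.6, the weakest at 18.4. The paper allows that changes may be harder to detect at less significant sites, so whether the 7 sites kept Suz12 cannot be told. There was 1 undepleted site each at Otx1, Otx2, Emx2, En1, En2, Gbx2 and Lmx1b. Of the 11 sites centered upstream of a gene, 5 were undepleted, of the 12 in introns 1, of the 7 downstream 1, and of the 10 in exons or UTRs none. Each undepleted site lay between 200 and 5400 bp from a depleted site. Of the 7, 3 carried Pcl3, compared with 28 of the 33 depleted sites. Neither position nor Pcl3 was counted for depleted and undepleted sites over the whole list. No share of the list thus stands beside these counts, and the part of strength in them was not tested.

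**Figure D3:**
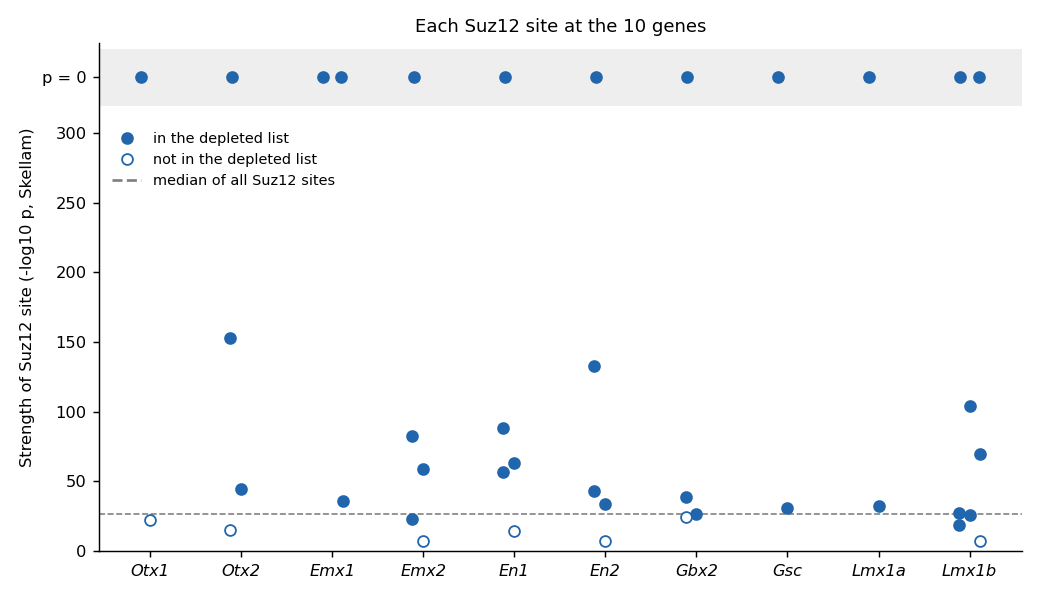
Strength of each of the 40 Suz12 sites by gene, as −log10 of the Skellam p-value in scramble cells, with the 12 sites whose p-value is 0 in the gray band at the top. Filled points are in the depleted list and open points are not; the 7 open points all lie below the dashed line at 26.2, the median of all 8876 Suz12 sites, and every site in the gray band is filled.

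Membership in the depleted list rose with strength over the whole list, from 2.47% of the sites in the weakest decile to 100% in the strongest. In deciles 7 to 10, 24 of 24 of their sites were depleted, where 97.4% to 100% of all sites were. In deciles 1 to 6, 9 of 16 were depleted. The count was 6 of 6 in decile 6 (89.0% of all sites), 2 of 4 in decile 5 (69.1%), 1 of 3 in decile 4 (48.5%) and 0 of 3 in decile 1 (2.47%). In deciles 4 and 5 the share was thus below that of the list, and in decile 6 above it, with few sites in each. The sites of the 10 genes had a median −log10 p-value of 57.8 against 26.2 in the whole list, and the part of strength in their share of 82.5% was not tested. Sharing of a Pcl3 site rose with strength as well, from 10.2% of all sites in the weakest decile to 99.7% in the strongest. Sharing of an H3K27me3-depleted site rose from 1.46% to 19.4%.

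**Figure D4:**
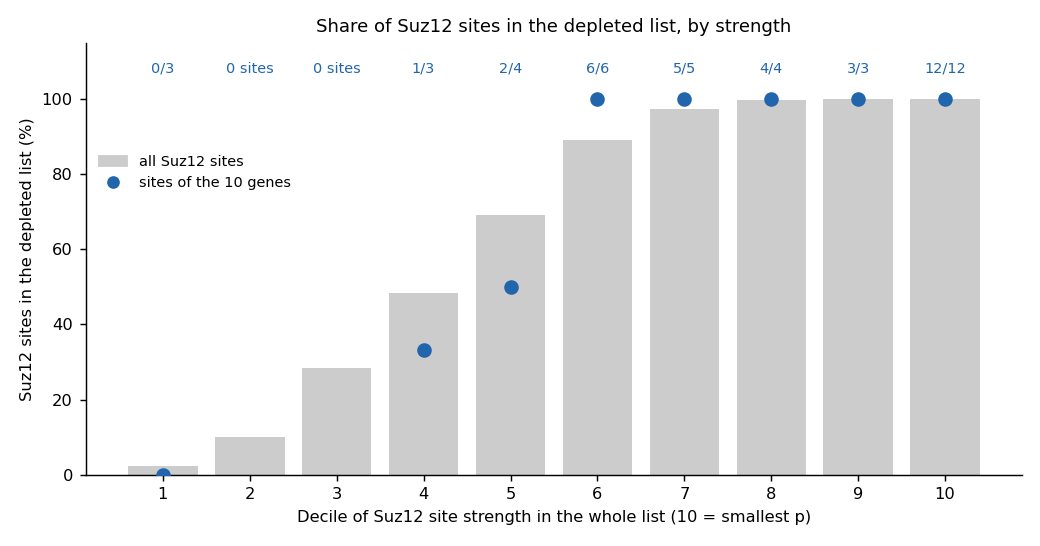
Percent of Suz12 sites in the depleted list (vertical axis) by decile of Suz12 site strength (horizontal axis, 10 is the smallest p-value). Gray bars are all 8876 sites and blue points the sites of the 10 genes, with depleted over total counts above; the points reach 100% from decile 6 on, where the bars stand between 89.0% and 100%.

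The DNA under these sites was examined for CpG density and for GCGCGC, a palindromic run of CpG. The 40 Suz12 sites had a median of 3.50 CpG per 100 bp, and all 8876 Suz12 sites had 5.41. For the 43 Pcl3 sites the median was 3.48, and for all 5242 it was 5.33. The central 500 bp were counted as well, so that sites of unlike width were read over the same length. There the medians were 4.40 for the Suz12 sites of the 10 genes against 7.00 for all, and 3.20 against 6.00 for Pcl3. In several of the wide sites the center was poorer in CpG than the whole, as at Otx1 (1.00 against 4.98 CpG per 100 bp) and En2 (3.60 against 6.32). At 8 of the 10 genes, the Suz12 site over the gene start was the most CpG-dense of the gene's Suz12 sites, from 4.76 CpG per 100 bp at Emx2 to 6.32 at En2, and Otx2 and Lmx1a were the exceptions. This count was not made over other genes, so it is not shown to be particular to these. GCGCGC occurred in the central 500 bp of 4 of the 40 Suz12 sites (10.0%, against 37.5% of all Suz12 sites) and 7 of the 43 Pcl3 sites (16.3%, against 33.7%). Over whole sites the shares were 40.0% against 52.5%, and 39.5% against 48.5%. The 12750 bp site of Otx1 held 11 matches, and that over the start of En2 held 6.

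Other genes of brain patterning were taken from a list of 32 written for this purpose, also with earlier results of these data known. Of the 32, 28 had a Suz12 site, the same number a Suz12-depleted site, 29 a Pcl3 site and 7 an H3K27me3-depleted site, and 16 had a Suz12 site with a p-value of 0, which all 10 homeobox genes above had. The percents for all protein-coding genes are those given above. The median of the widest Suz12 site over the 28 genes was 4350 bp (range 1600 to 11500), against 5975 bp over the 10. By role, Suz12 sites were found at 7 of 8 genes of the isthmic organizer, 7 of 8 of the anterior forebrain, 8 of 8 of midbrain dopaminergic neurons, 4 of 5 of the anterior organizer and 2 of 3 close paralogs of the genes above. The genes without one were Fgf17, a growth factor of the isthmus, Hesx1, a forebrain repressor, Cer1, a secreted antagonist of Nodal, Wnt and BMP, and Crx, the photoreceptor paralog of the Otx genes. Hesx1 had a weak Pcl3 site (p-value 7.04e-11).

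The H3K27me3-depleted sites among these 32 genes were at Pax2 (smallest p-value 2.40e-13) and Pax5 (6.94e-11), which act with En1 and En2 at the isthmus, at Six3 (2.94e-08), a forebrain determinant that antagonizes Wnt signaling, at Barhl1 (4.90e-12), at the organizer genes Lhx1 (1.69e-14, 5 sites) and Nog (1.07e-08), and at Gsc2 (1.05e-08), the paralog of Gsc. Lhx1 and Nog are, like Otx1, on chromosome 11. None of the 32 genes had Suz12 sites exclusively outside the depleted list. Of 8 genes that mark undifferentiated ESCs, Suz12 sites were listed at 2, Esrrb and Klf4, against 28.8% of protein-coding genes. Both also had a Suz12-depleted site (20.7% of protein-coding genes). Pcl3 sites were listed at Esrrb and Sox2 (14.7%), and none of the 8 had an H3K27me3-depleted site (3.13%). With 8 genes, no difference from these percents is read. The lists contain no measure of expression, so the identity of the cells could not be checked from these markers.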

How the data were processed

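Processed lists of ChIP-seq sites were analysed for the 6 ChIP and 4 input libraries of the series. Per the study's methods, the authors aligned single-end reads of 30 nucleotides to mm9 with bowtie (also named in the submitters' processing notes, version not given in the sources used here), kept unique alignments, equalized the background of paired libraries, and called windows of 400 bp by the Skellam distribution at a cutoff of 1e-07. A deposited site can thus span many windows, and the deposited p-values refer to whole sites. They depend on depth as well as on enrichment. Unique alignment leaves out most repeated DNA, and the scaling assumes a like background in both libraries of a pair. How the 2 Pcl3 libraries entered 1 list is not given in the sources used here.

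Sites were assigned to GENCODE vM1 genes by shared bases, with positions 1-based. Site ends lay within the mm9 chromosome lengths. Sites with a p-value of 0 were ranked as strongest. CpG, counted on mm9, is given per 100 bp, and GCGCGC, its own reverse complement, was counted without overlap between matches. Deciles of strength were cut from the ranks of all Suz12 sites. The overlap functions were tested on simulated data and differed from a direct search in 0 of 1800 and 0 of 200 cases. Scripts ran in Python 3.11.15 with matplotlib 3.10.9, scipy 1.17.1, pandas 2.3.3 and numpy 2.4.6.

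No test was made, as there is 1 library per condition. The genes and the lists of other genes were chosen with earlier results of these data known. All sites of the 10 genes were considered. Of the other genes, those with an H3K27me3-depleted site, those without a Suz12 site and those with only undepleted Suz12 sites were to be named. Alternatives were other flanks, transcript starts, stricter p-values, more shared bases, merged neighbouring sites, centers within 2 kb and omission of chromosome 11, and, chosen after seeing the data, another part of the site for CpG and GCGCGC.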

Additional observations from a re-analysis of the deposited data

How the results depend on the processing

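Under every alternative run, all genes analysed (10, or 9 without chromosome 11) kept a Suz12, a Suz12-depleted and a Pcl3 site. The count of genes with an H3K27me3-depleted site was the value that moved most. It was 4 as reported and became 2 with no flank (2.28% of protein-coding genes in the same setting) and 2 with a flank of 2 kb (2.60%), 1 within 2 kb of a transcript start (1.91%), 1 at p-values of at most 1e-10 (1.07%) and 0 at 1e-12 (0.630%), where the percent of Suz12 sites sharing one fell from 12.5 to 0. Without flanks, 95.7% of the 23 remaining Suz12 sites were depleted, in place of 82.5% of 40, and 307, the value given to sites with a p-value of 0, became the median −log10 p-value, in place of 57.8. The alternatives added after seeing the data, whole sites for GCGCGC and the central 500 bp for CpG, moved the shares to 40.0% (Suz12) and 39.5% (Pcl3) and the median CpG density to 4.40. In all, 46 of 57 alternative values stayed within 1.5 times the reported count or within the 95% binomial interval of the reported share or median. That interval covers counting of sites alone and treats neighbouring sites of a gene as independent. The 46 include the counts of genes with a Suz12, Suz12-depleted or Pcl3 site. Wider flanks or stricter p-values could not lower those, given the strong sites over every gene start. The tally is thus not a measure of robustness. No paired analysis was possible because each list comes from unreplicated libraries or, for Pcl3, is 1 list for both, and none was left out in turn for the same reason. Depth limits what a missing site means: a gene without an H3K27me3-depleted site may have had a loss below the cutoff, and so may an undepleted Suz12 site.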

Other observations

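The primer pair that the study lists for ChIP-qRT-PCR of Otx2, with the sequences tttcaaagcgagagggaaga and ccacgcacatactgtggttc, had no exact match on chromosome 14, where Otx2 lies. Its 2 matches in mm9 face each other at Otx1 (chr11:21902661-21902841), 181 bp apart at their outer ends, from 59 to 239 bp after the annotated start of Otx1 in an untranslated part of an exon. That position lies within the Suz12, Suz12-depleted and Pcl3 sites of Otx1 and outside its H3K27me3-depleted site. The paper's text names Otx2 for ChIP-qRT-PCR of H3K4me3, a mark of active genes, which it reports as unchanged there upon Pcl3 knockdown.

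Pcl3 sites without Suz12 occurred at 5 of the 10 genes (Otx1, Otx2, En2, Gsc and Lmx1b), 9 sites in all. That is 20.9% of the 43 Pcl3 sites, near the 23.1% of all 5242. The strongest were upstream of Gsc (p-value 2.38e-37) and Otx2 (p-value 2.00e-30) and in the first part of Lmx1b (p-value 6.32e-29).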
